A study of Urocitellus parryii with 44 samples.

Results

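Apoptosis regulators are the proteins that hold back or set off programmed cell death. On the mouse cDNA membranes used here they were taken by name alone: probes with a single gene symbol beginning with Bcl2, Birc, Bag or Casp (the last 2 followed by a digit), and those of Bax, Bak1, Bid, Bad, Bik, Bnip2, Bnip3, Bnip3l, Mcl1, Apaf1, Diablo, Cflar, Aifm1 and Endog. The rule found 79 of 38400 probes. They stand for 34 of 11786 genes and come from 64 cDNA clones, some spotted more than once. Of the 79 probes, 78 were tested, having at least 2 summer and 2 torpid values, and these cover all 34 genes. Bax and Endog were not analysed here.

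The tissue was brown adipose tissue of the arctic ground squirrel, Urocitellus parryii, a fat that makes heat. The summer group was 3 active animals sampled in August, and the other group was 5 animals in winter torpor, the hibernator's state of lowered metabolism and body temperature. No drug or genetic change is named for either group. Total RNA of each animal was hybridised to 4 membranes (MA07, MA08, MA10 and MA11) of 9600 probes each, and 3 of the RNAs (summer animals 1 and 2, torpid animal 5) were each split into a pair of columns. Season and activity state cannot be told apart, and torpor had no second time point. The probes are of mouse and the RNA of squirrel, so each symbol names the mouse gene, and 31 of the 34 symbols also occur in the RefSeq annotation of the squirrel (Casp1, Casp12 and Mcl1 do not).

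In the mitochondrial route to apoptosis, Bak1 and its relative Bax open pores in the outer mitochondrial membrane, Bcl2 and its anti-apoptotic kin restrain them, and BH3-only proteins such as Bid, Bad and Bcl2l11 relieve that restraint. Cytochrome c then leaves the mitochondrion and assembles with Apaf1 and Casp9 into the apoptosome, which starts the executioner caspases, while Diablo removes the inhibitor of apoptosis (IAP) proteins from caspases. In the death receptor route Casp8 is the first caspase and Cflar its inhibitor. Bnip3 and Bnip3l are better known for marking mitochondria for removal by autophagy, which in brown fat is one way the mitochondrial content is set.

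Values are log2 of the spot intensity over the median of its column, so that 0 is the median spot, and a difference is torpor minus summer. Levels of different probes are not set against each other. Each column is centred on its own median, and the median difference over all tested probes was 6.5e-05. The number of arrays limits the precision: the median standard error (SE) of a difference was 0.28 for the apoptosis regulators and 0.29 for all probes. Duplicates of one RNA differed with an SD of 0.48 over the apoptosis regulators, and animals of a group with a pooled SD of 0.46. These are not like for like: the first is between single columns of 3 RNAs. In the second, the columns of those 3 split RNAs were averaged first, which narrows it. In bulk tissue, fewer cells of a type and less RNA per cell cannot be told apart.

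No apoptosis regulator passed the test. With limma and Benjamini-Hochberg adjustment over all probes, 0 of 78 probes had an adjusted p up to 0.05, where 0.309% of the 37848 tested probes did (117 probes, 98 or 0.259% higher and 19 or 0.0502% lower in torpor). At an unadjusted p under 0.05 there were 11 of 78, which is 14.1%, beside 11.6% of all probes. Of these, 9 were higher in torpor (11.5%, all probes 6.39%) and 2 were lower (2.56%, all probes 5.18%). In 9 of the 78 (11.5%) the groups did not overlap, beside 8.5% of all probes. Torpor was above in 7 (8.97%, all probes 4.37%) and below in 2 (2.56%, all probes 4.13%). With fewer animals non-overlap was more frequent over all probes too: it was found in 16 apoptosis regulators (21.1%, all probes 18.3%) without summer animal 2 and in 14 (18.2%, all probes 15.1%) without summer animal 3. Over all 8 animals the shares counted in either direction lay near the background. Counted over single probes, those higher in torpor lay above it and those lower in torpor below it, on few probes. Counts by gene and by clone are given below.

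Differences over 1 in size, a 2-fold change in intensity, were found in 8 of 78 probes or 10.3%, beside 4.71% of all probes, and all 8 were positive. The 4.71% counts both directions. Over all probes the 98th percentile of the difference was 1.12 and the 2nd percentile -0.997. The 8 probes were Bcl2 on MA10 and MA11 (spots of the same clone), Aifm1 on MA07 and MA10, Bnip3l, Cflar, Bcl2l2 and Bak1. The median difference was 0.07, with 45 of 78 probes (57.7%) above 0, where 50.0% of all probes were. With each gene stood for by its brightest probe, the median was 0.10 and 22 of 34 genes were positive. That median was 0.016 without summer animal 2. When the probes of a gene were averaged, limma called 0 of 34 genes (all genes 0.128%). Genes at an unadjusted p under 0.05 numbered 6 of 34 (17.6%, all genes 11.5%). Of these, 4 were higher in torpor (11.8%, all genes 6.46%) and 2 lower (5.88%, all genes 5.07%). Those without overlap also numbered 6 of 34 (17.6%, all genes 7.88%). Torpor was above in 3 (8.82%, all genes 4.21%) and below in 3 (8.82%, all genes 3.67%). Averaged over spots of the same clone, 0 of 63 clones were called (all clones 0.262%), with 8 at an unadjusted p under 0.05 (12.7%, all clones 11.5%). Of these clones, 5 were higher in torpor (7.94%, all clones 6.66%) and 3 lower (4.76%, all clones 4.83%). Counted by gene or by clone, the share lower in torpor was near or above the background.

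**Figure D1:**
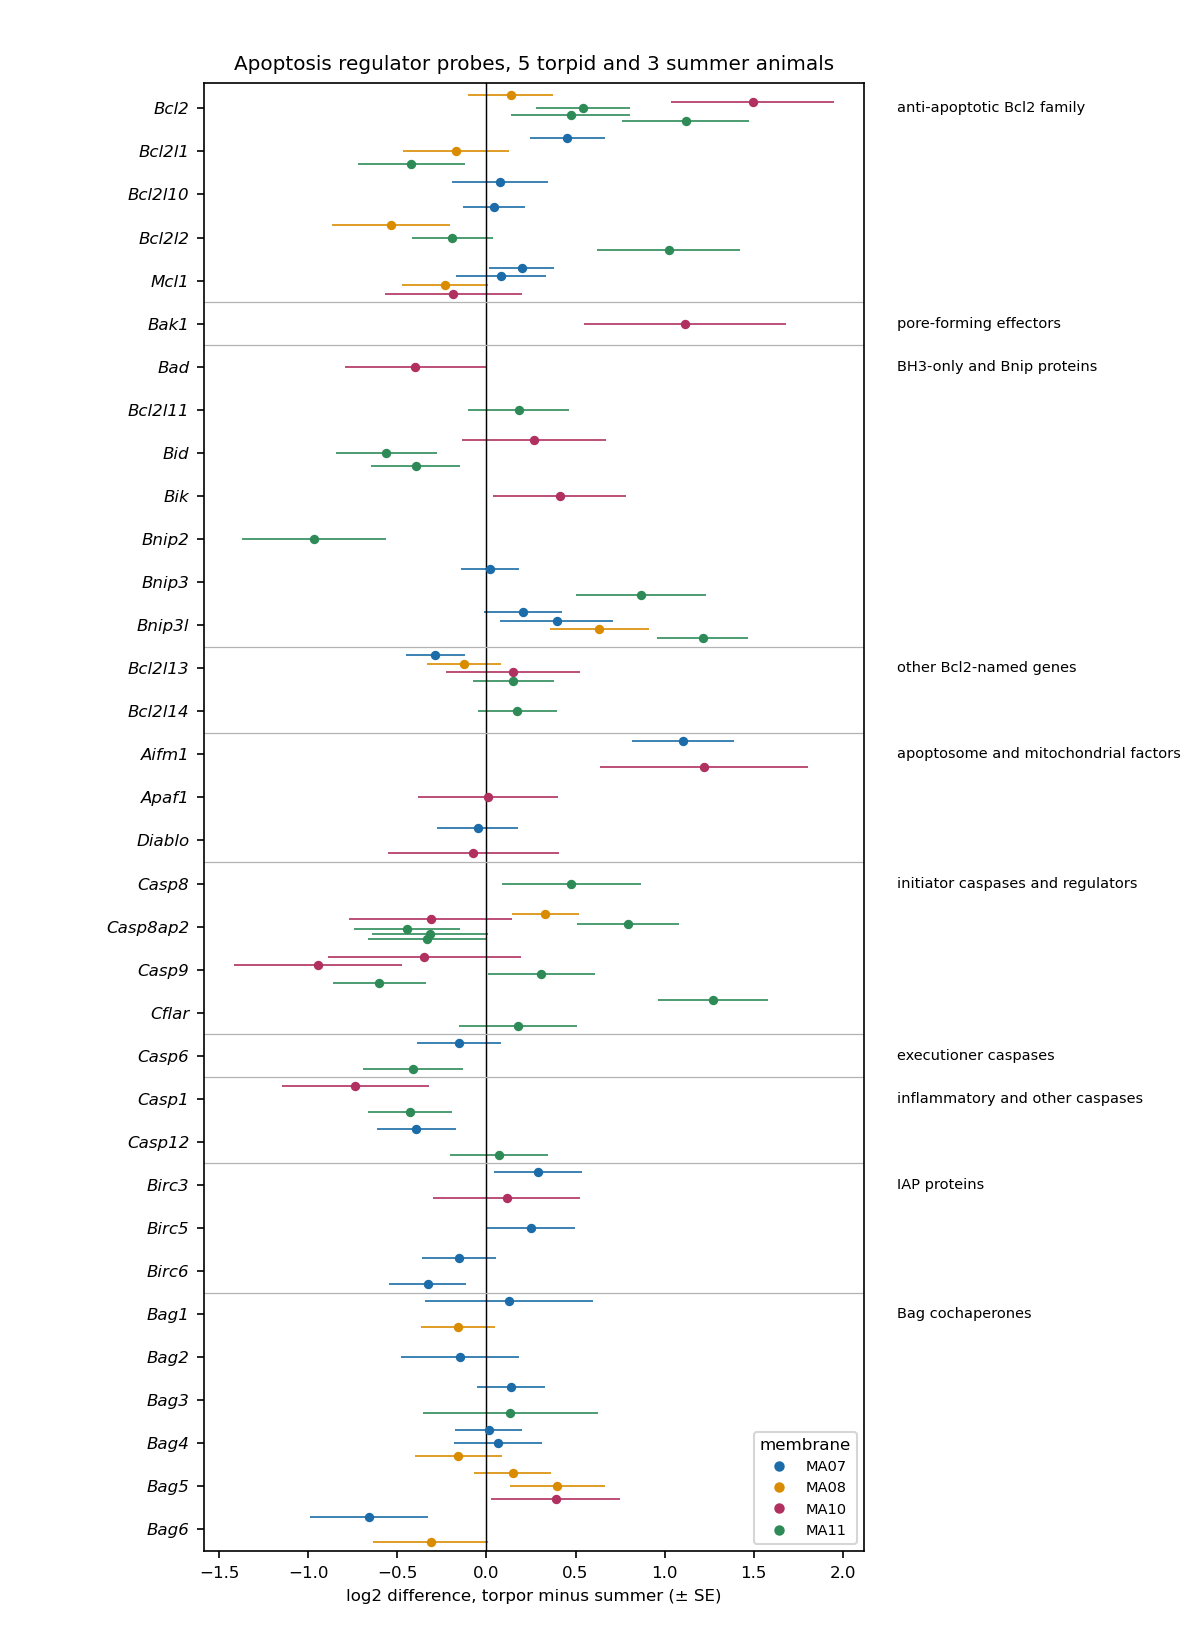
Log2 difference, torpor minus summer, of each tested apoptosis regulator probe (points, coloured by membrane; bars, SE from limma; 5 torpid and 3 summer animals), grouped by role. Probes of Bcl2 and Bnip3l all lie above 0, while probes of Casp8ap2, Casp9 and Bcl2l2 lie on both sides.

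**Figure D2:**
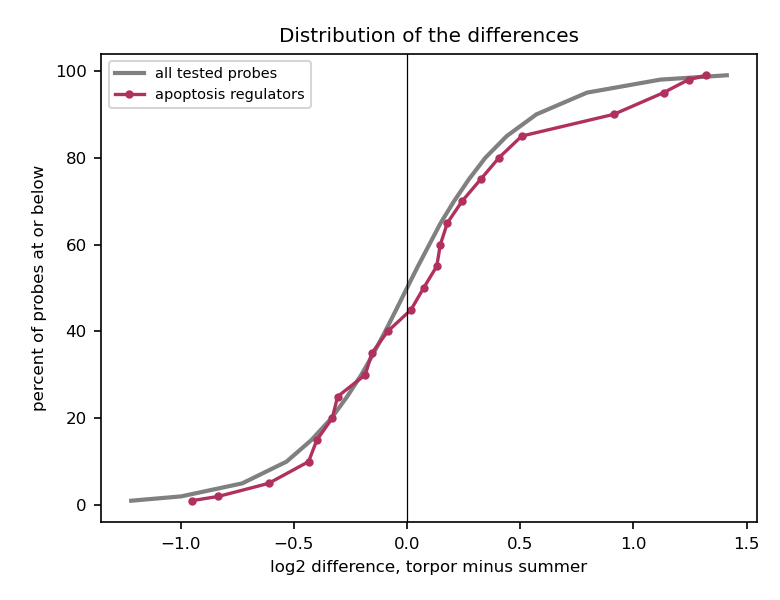
Percent of probes at or below each log2 difference, torpor minus summer, for all 37848 tested probes (grey) and the 78 tested apoptosis regulators (red). The curves run close together from the 15th to the 40th percentile. The 5th percentile was -0.61 for the apoptosis regulators and -0.73 for all probes, and the 95th was 1.13 and 0.795. At the 99th percentile the apoptosis regulators lay lower, at 1.32 beside 1.41.

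The anti-apoptotic Bcl2 family was measured by 17 probes of 5 genes, 11 above 0 and 6 below, with a median of 0.08. Bcl2, the founding member, which sits in the outer mitochondrial membrane, had 5 of 5 probes above 0, from 0.14 to 1.49. On MA10 the Bcl2 probe read 4.49, 2.79 and 4.62 in summer animals 1 to 3 and 6.24, 5.36, 5.40, 5.17 and 5.12 in torpid animals 1 to 5. Every torpid animal lay above every summer animal, and summer animal 2 was the lowest by a wide margin. The difference was 1.49 ± 0.46 (SE), 2.82-fold, with an adjusted p of 0.20 in limma. It was 0.91 without summer animal 2.

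A second Bcl2 probe, number 8688 on MA11, read 3.05, 1.74 and 3.22 in the summer animals and 4.01, 4.14, 3.96, 3.11 and 3.72 in the torpid ones. Torpid animal 4 lay below summer animal 3, so the groups overlapped. The difference was 1.12 ± 0.36 (SE; adjusted p = 0.25 in limma), and it became 0.65 without summer animal 2, 0.71 with quantile normalization and 0.67 with cyclic loess. The MA10 probe, this one and another of 0.54 are spots of 1 clone and so share their sequence. Spots of other clones gave 0.47 and 0.14. Averaged over its 5 probes, Bcl2 was 0.75 ± 0.22 higher in torpor without overlap between the groups, and did not pass (adjusted p = 0.25).

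Bcl2l1, which encodes Bcl-xL, did not point one way. Its probe on MA07 read -1.01, -0.92 and -0.57 in summer and 0.05, -0.24, -0.66, -0.61 and -0.43 in torpor, a difference of 0.45 ± 0.21 (adjusted p = 0.45). Torpid animals 3 and 4 lay within the summer range, and the first and second duplicates gave 0.20 and 0.71. The brightest Bcl2l1 probe, on MA08, read 0.26, -0.31 and 1.09 in summer and 0.22, 0.50, 0.24, -0.19 and 0.11 in torpor. The torpid values lay inside the summer range, and the difference of -0.17 ± 0.30 (adjusted p = 0.87) was -0.63 and 0.29 from the first and second duplicates, 0.20 without summer animal 3 and -0.50 without summer animal 2. A spot of the same clone on MA11 gave -0.42.

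Mcl1, a short-lived protein with the same restraining role, was measured by 4 probes between -0.23 and 0.20. The brightest read 0.78, 0.67 and 0.95 in summer and 0.75, 1.64, 0.83, 0.65 and 0.55 in torpor. Torpid animal 2 stood above the rest, and the other torpid animals overlapped the summer animals. Its difference was 0.08 ± 0.25 (95% interval -0.48 to 0.64), and from -0.11 (without torpid animal 2) to 0.17 with 1 animal left out. Bcl2l10, a further relative, also had both of its probes above 0, at 0.04 and 0.08.

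Bcl2l2, which encodes Bcl-w, had spots that disagreed. The MA11 probe number 8546 read -2.06 and -1.14 in summer animals 1 and 3, was empty in summer animal 2, and read -0.19, -1.0, -0.84, 0.21 and -1.09 in torpor. The groups did not overlap, on 2 summer values, with a difference of 1.02 ± 0.40 (adjusted p = 0.36). The spot of the same clone on MA08 gave -0.54, and a probe of another clone gave -0.19.

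The pore-forming effectors were measured by 1 probe of Bak1, on MA10. It read 0.90, 0.92 and -1.41 in summer and 2.02, 0.56, 0.51, 2.31 and 0.88 in torpor. Summer animal 3 stood far below all others, and torpid animals 2, 3 and 5 were below summer animals 1 and 2. The difference of 1.11 ± 0.57 (adjusted p = 0.46) was 0.34 without summer animal 3, and 0.70 when all columns were fitted with the animal as a random block.

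Among the BH3-only and Bnip proteins, 13 probes of 7 genes had a median difference of 0.20, with 9 above 0 and 4 below. The smallest adjusted p of any apoptosis regulator was that of Bnip3l, also called Nix, a mitochondrial receptor for autophagy. Its MA11 probe read 1.45, 1.37 and 0.78 in summer and 2.48, 2.05, 2.76, 2.25 and 2.54 in torpor. The lowest torpid animal stood 0.60 above the highest summer animal. The difference was 1.21 ± 0.25 (SE), 2.32-fold, with a 95% interval from 0.66 to 1.77 and an adjusted p of 0.078 in limma. It was 0.81 with cyclic loess (adjusted p = 0.22) and 0.99 with quantile normalization (adjusted p = 0.18). The highest adjusted p was 0.34, with the animal number as a replicate block. The probe passed the threshold in 3 alternatives: with a pseudocount of 0.1 (adjusted p = 0.042), without probes under percentile 20 of signal (0.044) and with all columns fitted with the animal as a random block (0.037).

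The other 3 Bnip3l probes were positive as well. The one on MA08 read 1.14, 1.03 and 1.74 in summer and 2.17, 2.31, 2.21, 1.35 and 1.64 in torpor, where torpid animals 4 and 5 lay within the summer range. Its difference was 0.63 ± 0.28 (adjusted p = 0.41), and both MA07 probes gave 0.20 and 0.39. Averaged over its 4 probes, Bnip3l was 0.61 ± 0.15 higher in torpor, without overlap, at an adjusted p of 0.18.

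Bnip3, the nearest relative of Bnip3l, had 1 probe on MA11 that read -0.82, -1.54 and -0.57 in summer and -0.96, -0.26, -0.34, 0.71 and 0.31 in torpor. Torpid animal 1 was below summer animals 1 and 3. The difference of 0.87 ± 0.37 (adjusted p = 0.39) was 0.46 with the animal number as a replicate block, and the second Bnip3 probe, on MA07, gave 0.02 ± 0.16. Bnip2, a partner of Bcl2 and adenovirus E1B proteins, gave the lowest difference of the set, at a dim spot (signal percentile 4.56). It read -1.73 and -0.83 in summer animals 1 and 2 and -2.48, -1.63, -2.0 and -2.89 in torpid animals 1 to 4, and was empty in summer animal 3 and torpid animal 5. Torpid animal 2 lay within the summer range. The difference of -0.97 ± 0.40 (adjusted p = 0.39) was -0.31 with a floor at the 10th percentile and -0.53 from the second duplicates.

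The BH3-only proteins proper within the naming rule gave differences from -0.56 to 0.41. Bad, which binds Bcl2 and Bcl-xL when it is not phosphorylated, gave -0.40 ± 0.40. Bcl2l11, or Bim, gave 0.18, and Bik, found at the endoplasmic reticulum, gave 0.41. Bid, which caspase 8 cleaves to link the death receptors to mitochondria, gave 0.27, -0.56 and -0.40, and its mean over probes was -0.23 ± 0.14 (adjusted p = 0.57). The groups did not overlap in that mean although they did in each probe. The remaining Bcl2-named genes were Bcl2l13, with 4 probes from -0.29 to 0.15, and Bcl2l14, at 0.17. On MA07 the Bcl2l13 probe had every torpid animal below every summer animal, at an adjusted p of 0.54.

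**Figure D3:**
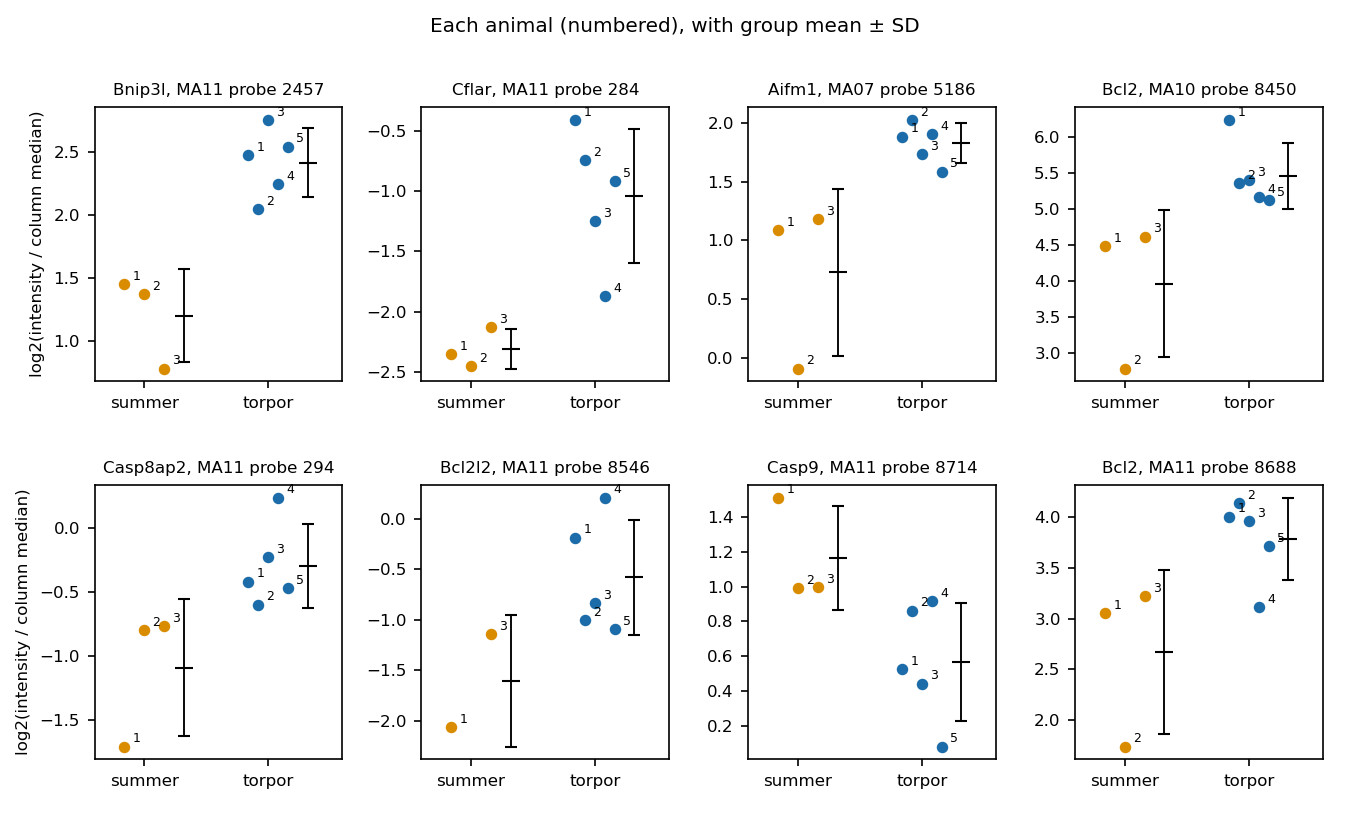
Log2 of intensity over the column median in each animal (numbered points) for the 7 probes whose groups did not overlap at an unadjusted p under 0.05 and for the Bcl2 probe on MA11, with group mean and SD beside the points (3 summer and 5 torpid animals). Summer animal 2 is the lowest in the Bcl2 and Aifm1 panels, and the torpid animals lie below the summer animals in the Casp9 panel.

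Of the apoptosome and mitochondrial factors, Aifm1 had the largest differences. Aifm1 is a flavoprotein of the space between the mitochondrial membranes, needed for the respiratory chain and able to enter the nucleus in cell death. Its MA07 probe read 1.09, -0.09 and 1.18 in summer and 1.88, 2.03, 1.74, 1.91 and 1.59 in torpor. The torpid animals lay close together, all above the summer animals, and summer animal 2 was the lowest. The difference was 1.10 ± 0.28 (adjusted p = 0.18 in limma), 2.15-fold, and it was 0.69 without summer animal 2.

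The Aifm1 probe on MA10 read 7.51, 4.75 and 6.10 in summer and 8.15, 7.96, 6.25, 6.49 and 7.87 in torpor. Summer animal 1 lay above torpid animals 3 and 4, and the duplicates of summer animal 2 differed by 2.52. The difference was 1.22 ± 0.58 (adjusted p = 0.43), with 1.92 without summer animal 1, 0.54 without summer animal 2 and 0.72 from the second duplicates. Averaged over both probes Aifm1 gave 1.16 ± 0.41 (adjusted p = 0.33).

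Apaf1, the scaffold of the apoptosome, read -0.72, -1.66 and -1.29 in summer and -0.50, -1.27, -1.47, -1.60 and -1.24 in torpor. The groups overlapped, with a difference of 0.01 ± 0.39 and a 95% interval from -0.82 to 0.84. Leaving out 1 animal at a time moved it from -0.21 to 0.26. Diablo gave -0.05 and -0.07.

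The initiator caspases and their regulators were split, with 6 of 13 tested probes above 0 and 7 below, at a median of -0.31. Casp9, the apoptosome's caspase, read 1.51, 0.99 and 1.0 in summer and 0.53, 0.86, 0.44, 0.92 and 0.08 in torpor on MA11 probe 8714. Every torpid animal lay below every summer animal, with a gap of 0.076 between the nearest animals. The difference was -0.60 ± 0.26 (adjusted p = 0.40 in limma). The spot of the same clone on MA10 gave -0.95 ± 0.47 and a second Casp9 clone gave -0.35 and 0.31.

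Casp8, the first caspase of the death receptor route, read 2.14, 0.25 and 0.45 in summer and 1.44, 1.65, 0.97, 1.32 and 1.75 in torpor. Summer animal 1 was above every torpid animal, and summer animals 2 and 3 were below every one. The difference of 0.48 ± 0.39 (adjusted p = 0.67) was 1.07, 0.13 and 0.23 without summer animals 1, 2 and 3 in turn, and 0.27 with cyclic loess.

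Cflar, the catalytically dead relative of Casp8 that blocks it, read -2.35, -2.45 and -2.13 in summer and -0.41, -0.75, -1.25, -1.87 and -0.92 in torpor on MA11 probe 284. All torpid animals lay above all summer animals, at a dim spot (signal percentile 12). The difference was 1.27 ± 0.31 (adjusted p = 0.13 in limma), 2.41-fold. It was 0.57 with a floor at the 10th percentile and 0.81 from the first duplicates. The duplicates of torpid animal 5 differed by 1.74. A second spot of the same Cflar clone on the same membrane gave 0.18 ± 0.33, with 2 torpid animals empty.

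Casp8ap2, a large nuclear protein also called FLASH that was found as a partner of caspase 8, had 6 tested probes from -0.45 to 0.80. On MA11 probe 294 it read -1.70, -0.80 and -0.77 in summer and -0.42, -0.60, -0.23, 0.24 and -0.47 in torpor. The groups did not overlap, with a difference of 0.80 ± 0.29 (adjusted p = 0.31), which was 0.49 without summer animal 1. This probe and the Cflar probe are 10 apart in probe number on MA11, so each counts among the other's neighbours. Whether probe number follows the place on the membrane was not tested. The median difference over neighbours by number was -0.013 for the Casp8ap2 probe (18 neighbours) and -0.008 for the Cflar probe (19 neighbours). In either set 0 were called, which decides nothing, since only 0.309% of all probes were called. The other 2 spots of its clone gave 0.33 on MA08, where all torpid animals again lay above all summer animals, and -0.32 on MA11. The mean over the 6 probes was 0.003.

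The executioner caspases were measured by Casp6, whose 2 spots of 1 clone gave -0.15 and -0.41. The mean over both was -0.28 ± 0.15 (adjusted p = 0.51), with every torpid animal below every summer animal. Casp1, the inflammatory caspase that matures interleukin-1 beta, was singled out after its values were seen, since both of its spots of 1 clone were lower in torpor. On MA11 it read 4.59, 4.66 and 4.34 in summer and 4.07, 3.94, 4.43, 4.30 and 3.76 in torpor, where torpid animal 3 lay above summer animal 3. The differences were -0.43 ± 0.23 on MA11 and -0.74 ± 0.41 on MA10, both at an adjusted p of 0.51. Their mean was -0.58 ± 0.18 (adjusted p = 0.27), with no overlap between the groups. Casp12, a caspase of the endoplasmic reticulum in rodents, gave -0.39 and 0.07 at dim spots.

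IAP proteins, which share a zinc-binding repeat that lets some of them bind caspases, gave differences from -0.33 to 0.29 over 5 probes of 3 genes. Birc5, or survivin, which also serves cell division, read -0.94, -1.79 and -0.75 in summer and -0.99, -0.58, -1.08, -0.95 and -0.95 in torpor. Summer animal 2 was the lowest and torpid animal 2 the highest, so the groups overlapped. The other torpid animals lay above summer animal 2 and below summer animals 1 and 3. The difference of 0.25 ± 0.25 (adjusted p = 0.74) was -0.07 without summer animal 2, 0.45 without summer animal 3 and 0.03 from the second duplicates. Birc3 gave 0.29 and 0.11, and Birc6 gave -0.15 and -0.33.

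The Bag cochaperones, which release substrates from Hsp70, were measured by 13 probes of 6 genes with 8 above 0, a median of 0.06 and a range from -0.66 to 0.40. Bag3, which joins Hsp70 to autophagy, read -0.60, -0.74 and -0.76 in summer and -0.50, -0.98, -0.26, -0.48 and -0.59 in torpor on its brightest probe. Torpid animal 2 was the lowest of all animals and the other 4 torpid animals were the highest. The difference was 0.14 ± 0.19, with a 95% interval from -0.29 to 0.56, and was 0.24 and 0.06 without torpid animals 2 and 3. Bag5 was positive on 3 of 3 probes (0.15, 0.40 and 0.39) and Bag6 negative on 2 of 2 (-0.66 and -0.31), none of them at an unadjusted p under 0.05. Bag1 gave 0.13 and -0.16, Bag2 gave -0.15, and Bag4 lay between -0.16 and 0.06.

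**Figure D4:**
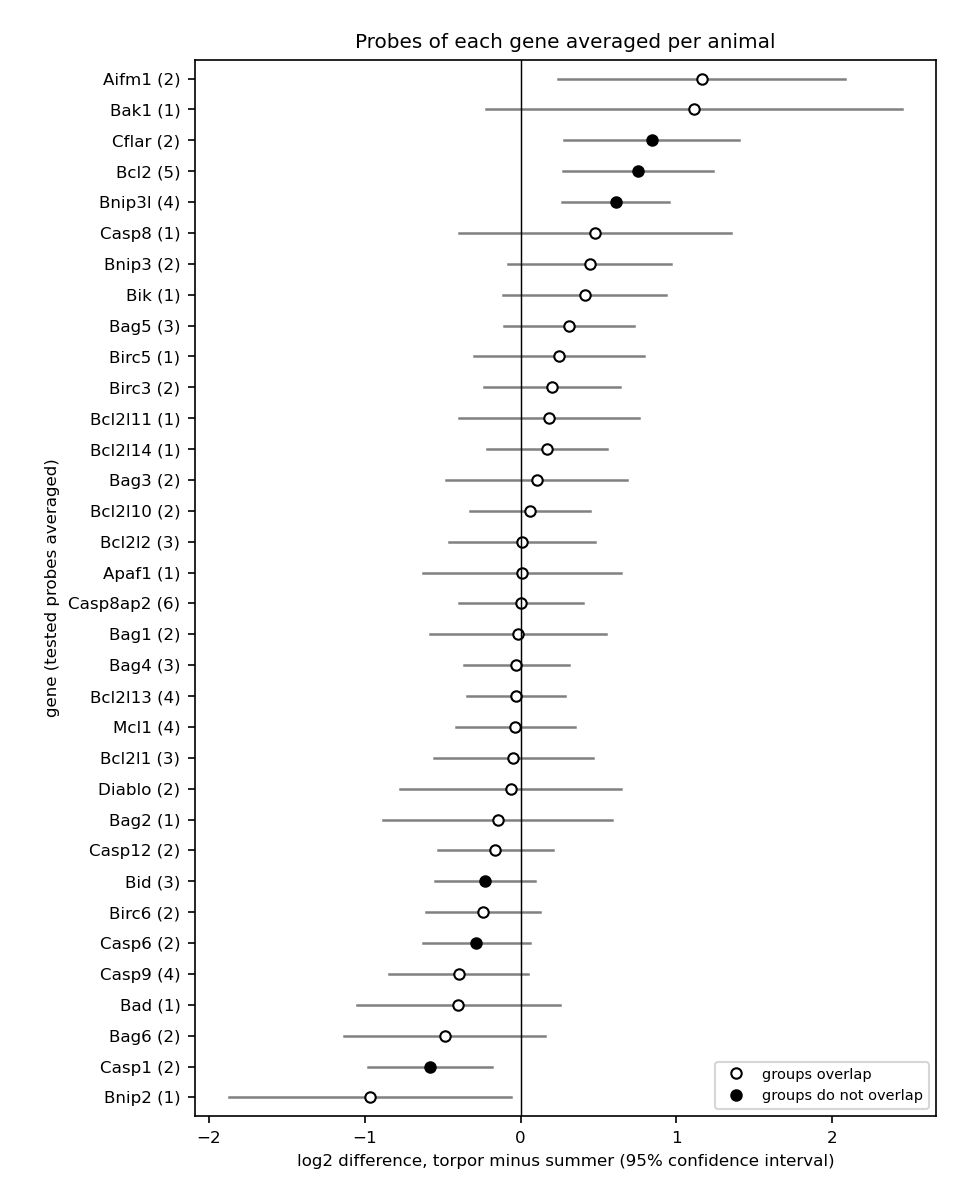
Log2 difference, torpor minus summer, of each of the 34 genes after averaging its probes per animal (points; bars, 95% interval from limma; number of tested probes after the gene name). Filled points mark the 6 genes whose groups did not overlap, which were Bcl2, Bnip3l and Cflar with torpor above and Bid, Casp1 and Casp6 with torpor below. For Cflar, the means of torpid animals 2 and 3 come from the dim probe 284 alone. Its brighter spot gave 0.18 with overlapping groups.

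Repeated spots showed how far a single probe can be read. Of 13 clones spotted more than once among the apoptosis regulators, 8 had all spots on one side of 0, which is 61.5% beside 61.2% of 1721 repeated clones over all probes. The median range between spots of a clone was 0.46, beside 0.33 over all repeated clones. The widest was that of Bcl2l2, at 1.56, and the narrowest that of a Casp8ap2 clone, at 0.017. Of the 24 genes with 2 or more tested probes, 14 had all of them on one side of 0.

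**Figure D5:**
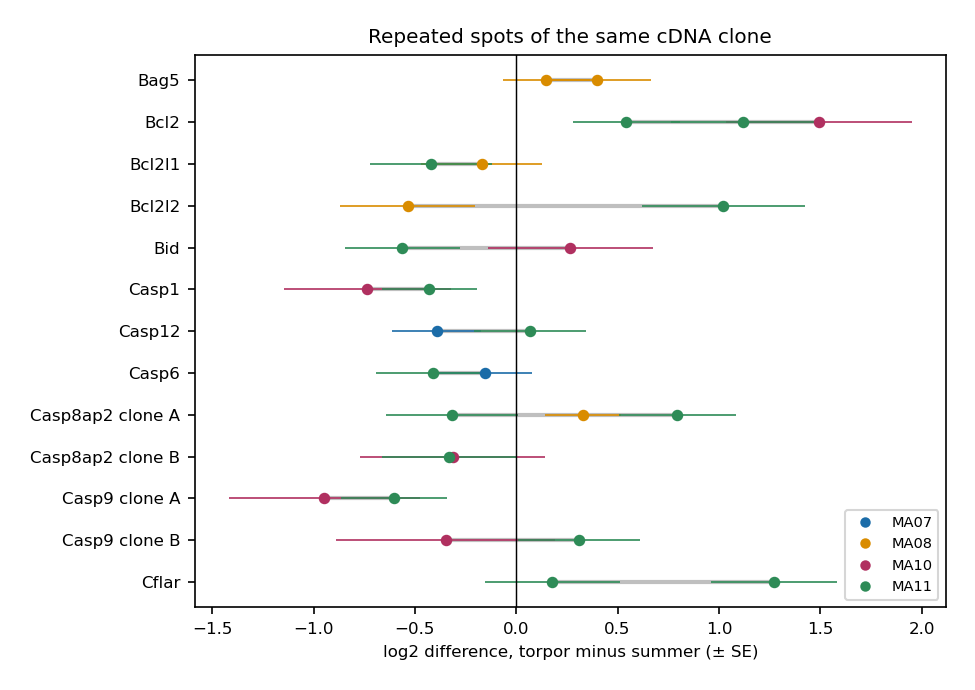
Log2 difference, torpor minus summer, of each spot of the 13 clones spotted more than once (points joined by a line; bars, SE). The 3 spots of the Bcl2 clone are all above 0, both spots of Casp1 are below it, and the Bcl2l2 spots lie on opposite sides.

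The wider pathway was described from lists of genes outside the naming rule. Death receptors, ligands and adaptors had 12 of 15 genes tested and 0 called, 5 above 0 and 7 below. Of their 20 probes, 3 had an unadjusted p under 0.05 (15%, all probes 11.6%). Tnfsf10, the death ligand TRAIL, gave 0.89 ± 0.33 (adjusted p = 0.33), and Fas and its adaptor Fadd gave -0.18 and -0.03. The p53 arm had 8 of 12 genes tested and 0 called. Of its 20 probes, 4 had an unadjusted p under 0.05 (20%, all probes 11.6%), and the genes went both ways. In it Pmaip1, the BH3-only protein Noxa, gave 1.07 ± 0.29 (adjusted p = 0.18) and Perp 0.75. Trp53inp1 gave -0.80 on one probe and -0.12 on its brightest.

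Calls were made among further Bcl2 relatives and mitochondrial factors, where 9 of 13 genes were tested and 2 rose, on 5 of 24 probes (all probes 0.259% higher). At an unadjusted p under 0.05 there were 15 of the 24 (62.5%, all probes 11.6%), several of them probes of the same gene. The median difference was 1.11 over the 24 probes and 0.23 over the 9 genes by their brightest probes. This list, too, was chosen with earlier results of these data known. Cycs, the cytochrome c that carries electrons in respiration and activates Apaf1 once released, rose on 4 probes by 1.90 to 3.26 (adjusted p from 0.016 to 0.032 in limma). Ghitm, which shapes the cristae and helps to retain cytochrome c there, rose by 2.85 ± 0.46 on 1 probe (adjusted p = 0.035), while its brightest probe gave 0.80 (adjusted p = 0.40). Vdac2, an outer membrane channel that binds Bak1, gave 1.46 on one probe and -0.43 on its brightest. Bmf gave 1.86 at a dim spot (adjusted p = 0.29). Death substrates and nucleases had 9 of 9 genes tested, 0 called and 0 of 26 probes at an unadjusted p under 0.05 (all probes 11.6%). The Cidea and programmed cell death genes had 14 of 16 tested and 0 called. Of their 41 probes, 4 had an unadjusted p under 0.05 (9.76%, all probes 11.6%). Pdcd10 gave 0.95 on both of the probes named (adjusted p = 0.091 and 0.12).

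Markers of the cells the tissue can hold were read beside these values. Of 13 brown adipocyte markers 7 were tested and 0 called, 1 above 0 and 6 below, and their summed intensity, in units of the column median, ran from 12.1 to 18.8 in summer and from 9.75 to 13.2 in torpor. The defining markers Ucp1, Adipoq, Fabp4 and Plin1 were not analysed here, so the labelled tissue was checked only by Cidea, Ppargc1a, Prdm16, Dio2, Elovl3, Lipe and Pparg. Of these, Dio2 and Lipe were dim even on their brightest probes, at signal percentiles 7.23 and 14.9. Immune cell markers had 9 of 13 tested, 3 above 0 and 6 below, and summed to 20.2 to 40.1 in summer and 26.5 to 32.8 in torpor over 8 genes. Dividing cell markers had 5 of 6 tested, 1 above 0 and 4 below, and summed to 7.62 to 18.6 in summer and 5.06 to 7.81 in torpor. Such sums give most weight to bright probes. Rrm2, of the highest signal percentile in this list, gave -1.57. Mki67 gave -0.95, Mcm2 -0.47, Cdk1 -0.11 and Top2a 0.05. None of these 3 lists had a called probe in limma. At an unadjusted p under 0.05 there were 0 of 10 brown adipocyte probes, 6 of 16 immune probes (37.5%) and 2 of 9 dividing cell probes (22.2%), beside 11.6% of all probes. The immune probes with the smallest p went both ways, with Lcp1 at 1.45, Cd79a at -1.01 and Cd3e at -0.89. Lists of endothelial, skeletal muscle, erythroid, and nerve and Schwann cell markers had 0 probes called (all probes 0.309%). Nerve and Schwann cell markers had 3 genes above 0 and 2 below. Among them Nefm, at signal percentile 99.8, gave 0.75 ± 0.34 (adjusted p = 0.43 in limma). The markers' part in the values of Casp1, Birc5 and the other apoptosis regulators was not tested.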

How the data were processed

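The authors deposited linear spot intensity values per column, divided by the column median (from the values: the median is 1 in all 44 columns when empty cells are ranked lowest). How spots were quantified, how background was handled and why some cells are empty is not given in the sources used here. Of the values of the apoptosis regulators, 3.91% were empty and were left missing. The deposited values were taken to log2, and both columns of a split RNA were averaged, giving n of 3 summer and 5 torpid animals. The fit was made for each membrane with limma 3.58.1 in R 4.3.3 (two-sided, torpor minus summer) on probes holding at least 2 values per group. Benjamini-Hochberg adjustment ran over all tested probes of the 4 membranes, with a threshold of 0.05. Tables were made with pandas 2.3.3. The fit was tested on simulated data.

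Symbols came from the platform annotation. A probe with several symbols was left out, and so was 1 whose symbol is in capitals. Animal values are given for probes past the threshold, for non-overlapping probes at an unadjusted p under 0.05, for the 6 next smallest p, and for the brightest probe of a fixed set of genes. A gene of a list stands by its brightest probe. The members and lists were chosen with earlier results of these data known. Alternatives covered scaling, floor, pseudocount, filters, variance model, duplicates, blocks and each animal left out.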

Additional observations from a re-analysis of the deposited data

Results flagged for a closer look

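In 3 probes of the apoptosis regulators, 1 torpid animal stood apart from the other 4 by more than Dixon's 95% critical value of 0.71. In Bcl2 on MA10 it was torpid animal 1, the highest at 6.24, with a gap of 0.752 of the range of the torpid animals. In Mcl1 on MA07 torpid animal 2 was the highest at 1.64, with a gap of 0.746 of the range. Torpid animal 2 was also the highest for Birc5, at -0.58, with a gap of 0.74. In all, 21 groups were examined, and chance alone marks about 1 in 20.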

How the results depend on the processing

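No apoptosis regulator passed in the main setting or with any animal left out (0 to 0). Exactly 1 probe, Bnip3l on MA11, passed with a pseudocount of 0.1, without probes under percentile 20, with the animal as a random block, and at an adjusted p up to 0.1. Over all probes 117 were called. The count was 63 with cyclic loess (46 higher, 17 lower), 76 with a floor at the 10th percentile, 249 with the pseudocount, 209 without dim probes, 228 with a trend and robust prior, 2 without moderation, 176 and 38 with first or second duplicates, 298 with the random block, 304 at an adjusted p up to 0.1, and 17 to 347 with 1 animal left out (347 without summer animal 1, and 45, 17, 50 and 60 without torpid animals 1 to 4). Non-overlapping apoptosis regulators numbered 10 to 16 with 1 animal left out (12.8% to 21.1%), where all probes gave 10.7% to 18.3%. The median over genes was 0.0099 with the median probe of each gene and 0.016 to 0.13 with 1 animal left out.

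With the animal number as a replicate block, 32 of all probes and 0 apoptosis regulators were called, the median over probes was 0.013, and Bnip3l on MA11 gave 1.23. Same-numbered animals correlated between -0.063 and 0.052, none above 0.1, so the numbers were not taken to pair the animals. Among all 5 torpid animals, a summer animal correlated best with its own number in 3 of 12 cases.

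Signs turned in 4 of the 20 named probes. Leaving out 1 animal gave -0.069 to 0.45 for Birc5, -0.50 to 0.20 for Bcl2l1 on MA08, -0.11 to 0.17 for Mcl1 and -0.21 to 0.26 for Apaf1. Bcl2l1 gave 0.29 from the second duplicates. Apaf1 gave -0.070 from the first duplicates and -0.010 with the random block. The cause was not tested. Averaging over clones and over genes was chosen after seeing the data. Groups of 3 and 5 animals limit all of these values.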

Other observations

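A Casp8ap2 probe on MA10, number 7515, could not be tested because all 5 torpid animals were empty there. It read -3.10, -1.51 and -2.39 in summer animals 1 to 3, at signal percentile 14.4.

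A probe whose symbol is written BAD, in capitals, stood outside the naming rule. It gave -0.57 ± 0.28 (adjusted p = 0.46 in limma), beside -0.40 for the Bad probe within the rule.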
